A study of Homo sapiens with 30 samples.

Results

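Collagens, laminins and integrins are the matrix proteins that cells of connective tissue and bone secrete and the receptors that hold cells to them. Probes were taken for them from a study of NFBD1 in U2OS, a human osteosarcoma cell line, by gene symbol: COL, number, A, number for collagen chains, LAMA, LAMB or LAMC and a number for laminin chains, and ITGA or ITGB and a number or single letter for integrin subunits. Of 126 probes of 76 such genes among 48802 probes on the platform, 74 probes of 52 genes were detected (detection p under 0.01 against the negative controls) on at least 3 of 30 arrays. They comprise 36 probes of 28 collagen genes, 17 probes of 10 laminin genes, 12 probes of 10 integrin alpha genes and 9 probes of 4 integrin beta genes. Within these symbols only the detection step used measured values, but the families themselves were chosen with earlier results of these data known.

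All cells carried a pSIREN retrovirus that expresses a short hairpin RNA (shRNA), the control cells included. In the first experiment (24 arrays) the groups were an NFBD1 shRNA (hairpin b, labelled NFBD1sh b), a p53 shRNA, both together, and the negative control virus (labelled neg), each with 5 Gy of ionizing radiation or mock irradiation, with 3 arrays each. The second experiment (6 arrays) set another NFBD1 hairpin (labelled NFBD1a, called the second hairpin here) against its own control virus, both unirradiated, with 3 arrays each. Irradiation came 2 days after infection and RNA was taken 4 h later. NFBD1, encoded by MDC1, binds damaged chromatin and gathers repair and checkpoint factors there, and p53 is the tumour suppressor that activates many damage-response genes. By its layout the study asks what loss of NFBD1 does to transcripts, in irradiated and unirradiated cells, and whether p53 is needed for it. The labels do not say that replicates came from separate cultures, so the p-values measure the spread between arrays, and the number of arrays limits their precision. The RNA is bulk RNA, in which fewer cells of a kind and less RNA per cell cannot be told apart.

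Collagens are built from 3 alpha chains, and their kinds differ in what they form. Fibrillar collagens make the tensile fibres of bone and tendon, network-forming collagens make sheets such as those of basement membranes, and FACIT collagens sit on the surface of fibrils. Laminins are trimers of an alpha, a beta and a gamma chain and are main components of basement membranes. Integrins pair an alpha with a beta subunit, bind these ligands outside the cell and link them to the actin skeleton inside it, and osteoblasts and tumours derived from them are rich producers of matrix.

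The arrays detected between 34.1% and 40.3% of probes, no 2 arrays were identical, and the highest correlation between any 2 was 0.996. MDC1 (probe ILMN_1814122) was lower with each NFBD1 hairpin, at -1.40 on the log2 scale with hairpin b averaged over the first experiment (SE 0.12, 2.65-fold, limma adjusted p = 3.73e-08) and -2.41 with the second hairpin (SE 0.08, 5.31-fold, adjusted p = 1.07e-06). Of 10 mesenchymal and osteoblast markers, 9 were detected on 3 or more arrays, SP7 being detected on 0. The same held for 4 of 8 epithelial markers, 5 of 9 blood cell markers with a probe and 5 of 6 endothelial markers. PTPRC, the leukocyte surface protein CD45, was detected on 0 arrays, but LYZ and CSF1R of the same list were detected on 29 each. CDH5, the endothelial cadherin, was detected on 0 arrays, but PECAM1 was detected on 30 and ERG on 29. The epithelial EPCAM was detected on all 30, but KRT5, CLDN3 and ESRP1 were detected on 0.

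In these osteosarcoma cells 45 of the 74 probes, for 35 genes, were detected on all 30 arrays. Among 11 fibrillar collagen genes 8 had a detected probe. COL1A1, the major chain of bone collagen, was detected on every array, while the probes of its partner chain COL1A2 fell short of the detection rule, as did those of COL2A1 and COL5A3. All 10 laminin genes with a named probe were detected. Among the integrin beta subunits ITGB1, ITGB2, ITGB5 and ITGB8 had detected probes and ITGB3, ITGB4, ITGB6 and ITGB7 had none. ITGB2, the beta subunit of leukocyte integrins, had its alpha partner ITGAX detected on ILMN_2254635 (18 of 30 arrays). The ITGAX probes ILMN_1726175 and ILMN_1730176 were detected on 0 arrays, and ITGAL, ITGAM and ITGAD had no detected probe. Just inside the rule, on 3 arrays, lay probes of COL11A1 (ILMN_1731446), COL11A2 (ILMN_1748166), COL4A3 (ILMN_1662731) and LAMB4 (ILMN_1792301). Just outside, on 2 arrays, lay probes of COL18A1 (ILMN_1806733), COL2A1 (ILMN_1674785) and COL9A3 (ILMN_1740155).

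The promoters of 4 genes that the results turn on are shown, since COL5A1, LAMB3 and LAMA5 were lower together with hairpin b, and LAMA5 and COL11A1 differed between the hairpins. Each is the 250 bases before a transcription start, 5′ to 3′, from RefSeq (GRCh38.p14), the first window listed where a gene has several. COL5A1 lies at chr9:134641553-134641802 (plus strand), LAMB3 at chr1:209652426-209652675 (minus strand), LAMA5 at chr20:62367313-62367562 (minus strand) and COL11A1 at chr1:103108523-103108772 (minus strand). Capitals mark matches on either strand to 4 motifs. The GC box was searched as GGGCGG. The CCAAT box was searched as those letters. The TATA box was searched as TATAAA. The AP-1 type site was searched as TGANTCA.
COL5A1: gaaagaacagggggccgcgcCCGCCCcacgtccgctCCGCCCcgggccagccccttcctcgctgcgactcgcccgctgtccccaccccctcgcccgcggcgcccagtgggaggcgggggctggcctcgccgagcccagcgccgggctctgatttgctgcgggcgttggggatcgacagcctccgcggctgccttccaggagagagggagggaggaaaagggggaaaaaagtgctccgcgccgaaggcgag
LAMB3: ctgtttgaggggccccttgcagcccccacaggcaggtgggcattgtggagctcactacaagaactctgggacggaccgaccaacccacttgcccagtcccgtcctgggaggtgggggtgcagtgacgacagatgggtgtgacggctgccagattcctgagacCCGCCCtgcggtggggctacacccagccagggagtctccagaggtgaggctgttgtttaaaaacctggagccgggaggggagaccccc
LAMA5: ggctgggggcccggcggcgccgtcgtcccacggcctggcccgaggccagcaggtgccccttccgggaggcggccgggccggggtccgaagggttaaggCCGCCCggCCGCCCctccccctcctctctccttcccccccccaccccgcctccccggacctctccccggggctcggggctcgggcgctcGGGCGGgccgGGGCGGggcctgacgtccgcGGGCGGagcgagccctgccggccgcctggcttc
COL11A1: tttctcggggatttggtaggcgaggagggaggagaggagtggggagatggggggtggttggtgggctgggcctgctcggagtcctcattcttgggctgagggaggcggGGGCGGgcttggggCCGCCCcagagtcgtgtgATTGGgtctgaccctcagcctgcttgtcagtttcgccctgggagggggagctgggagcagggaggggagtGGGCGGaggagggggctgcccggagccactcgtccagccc
COL5A1 held 2 matches to GGGCGG, LAMB3 held 1, LAMA5 held 5 and COL11A1 held 3, and COL11A1 also held 1 match to CCAAT. No window held TATAAA or TGANTCA. Of 35116 windows of this length in the table, 42.6% held GGGCGG, 32.0% held CCAAT, 10.7% held TATAAA and 6.6% held TGANTCA. A window was found for 14 of the 19 genes with a called probe. COL1A1, COL5A2, COL8A1, ITGA3 and LAMA1 had none.

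With hairpin b, transcripts of 2 collagens and 2 laminin chains were lower. COL8A1, which encodes a short-chain collagen of sheet-like networks, COL5A1, a chain of the fibrillar collagen that sets fibril diameter, LAMB3, the beta chain of an epithelial laminin, and LAMA5, the alpha chain of widespread basement membrane laminins, were each lower, by 1.29- to 1.36-fold. These were 5 probes among 72 fitted, called at a limma adjusted p under 0.05 over all 21568 probes fitted, averaged over both doses and over p53 status (12 against 12 arrays). None of the 72 was called higher, and of all 21568 probes 339 were called higher and 651 lower. In either direction 4.59% of all probes were called in this comparison, so 5 of 72 is near the background. No test of the share was made. The median log2 change was -0.07 for the members and 0.01 for all probes, and 54 of the 72 members were below 0, against 47.6% of all probes.

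COL8A1 probe ILMN_2402392 ranged from 7.61 to 7.97 (median 7.8) log2 intensity on the 12 arrays with hairpin b and from 7.93 to 8.42 (median 8.25) on the 12 without. The ranges overlapped only at their edges, and in each of the 4 pairs of groups matched for dose and p53 shRNA the 3 arrays with hairpin b all lay below the 3 without. Its change was -0.44 (SE 0.06, adjusted p = 3.70e-05). The second COL8A1 probe, ILMN_1685433, ranged from 9.80 to 10.26 (median 10.09) with hairpin b and from 10.17 to 10.79 (median 10.50) without. It also separated in all 4 pairs, and its change was -0.40 (SE 0.07, adjusted p = 0.00113). The remaining probe of the gene, ILMN_2246563, gave 0.12 (SE 0.11, adjusted p = 0.688), so the probes of COL8A1 disagreed. As differences between arrays with and without hairpin b on the same chip, ILMN_2402392 gave -0.20, -0.40, -0.37 and -0.67 on the 4 chips of the first experiment, and ILMN_1685433 gave -0.37, -0.32, -0.24 and -0.52.

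LAMB3 probe ILMN_1715684 ranged from 8.15 to 8.68 (median 8.45) log2 intensity with hairpin b and from 8.46 to 9.12 (median 8.85) without. The arrays overlapped overall and in 1 of the 4 pairs, that of the p53 shRNA at 0 Gy. Its change was -0.45 (SE 0.08, adjusted p = 0.00162), with -0.37, -0.56, -0.32 and -0.43 within the chips. LAMB3 probe ILMN_1680054 gave -0.28 (SE 0.10, adjusted p = 0.127) and was detected on 5 of 12 arrays with hairpin b and 11 of 12 without.

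COL5A1 (ILMN_1706505) and LAMA5 (ILMN_1773567) had their larger differences in irradiated cells. COL5A1 averaged 8.25 ± 0.25 with hairpin b at 5 Gy and 8.92 ± 0.39 with the control virus at 5 Gy (SD, n = 3 each), and 8.62 ± 0.29 with hairpin b at 0 Gy and 8.62 ± 0.16 with the control virus at 0 Gy. With the p53 shRNA present it averaged 8.19 ± 0.10 with hairpin b and 8.85 ± 0.20 without at 5 Gy, and 8.30 ± 0.12 with and 8.45 ± 0.25 without at 0 Gy. The arrays did not overlap in either pair at 5 Gy and overlapped in both at 0 Gy. The averaged change was -0.37 (SE 0.09, adjusted p = 0.0192), with -0.25, -0.35, -0.47 and -0.34 within the chips. As a difference between the change with hairpin b at 5 Gy and at 0 Gy, COL5A1 gave -0.59 (SE 0.19, adjusted p = 0.967), so a dependence on radiation did not pass the test over all probes.

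LAMA5 ranged from 8.04 to 9.07 (median 8.58) with hairpin b and from 8.39 to 9.44 (median 9.03) without, and its averaged change was -0.44 (SE 0.11, adjusted p = 0.0231). The single comparisons gave -0.89 at 5 Gy and -0.23 at 0 Gy, and with the p53 shRNA -0.57 at 5 Gy and -0.09 at 0 Gy (SE 0.23 each). Only the first of these pairs did not overlap. Within the chips LAMA5 gave -0.59, -0.67, -0.20 and -0.44. Its call was lost without control 0 Gy replicate 2 or without the replicate 3 array of both shRNAs at 0 Gy (adjusted p up to 0.051).

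**Figure D1:**
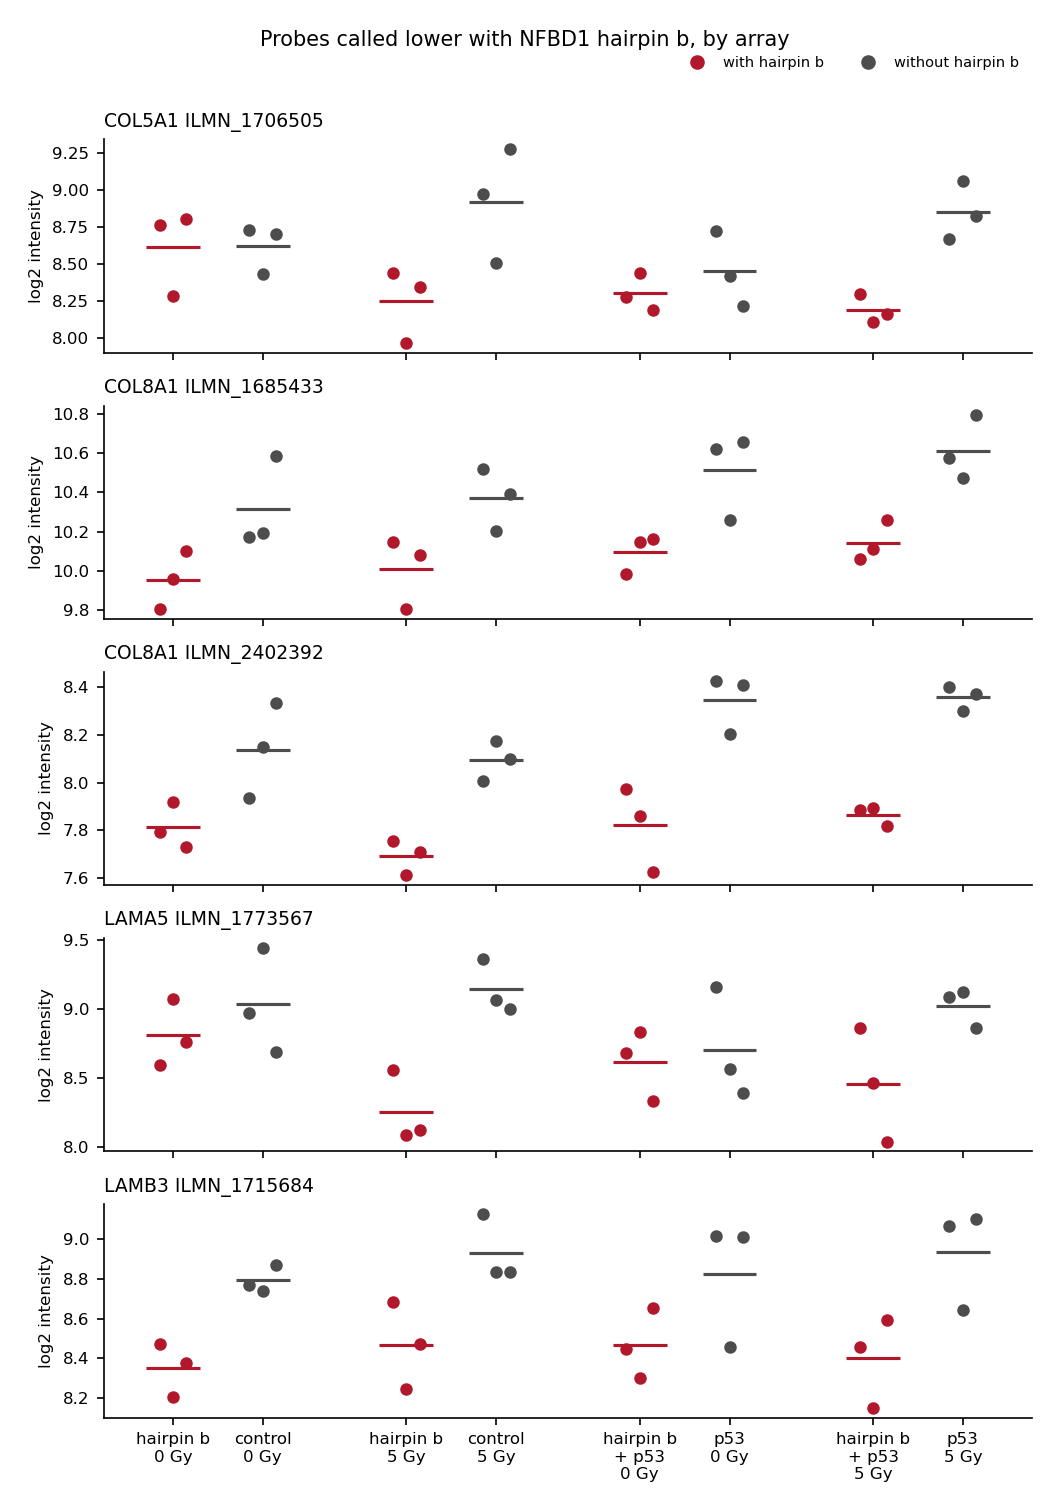
Log2 intensity (vertical axis, neqc-normalized) of the 5 probes called lower with hairpin b, one point per array and a bar at each group mean, for the 8 groups of the first experiment; red is with hairpin b and grey without, each pair matched for dose and p53 shRNA. Both COL8A1 probes separate in all 4 pairs, and COL5A1 separates at 5 Gy but not at 0 Gy.

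By role, the falls with hairpin b were 1 of 9 probes of fibrillar collagens, 2 of 8 of network-forming collagens, 1 of 8 of laminin alpha and 1 of 7 of laminin beta chains. In this fit, which has no replicate block, no probe was called among 8 of type VI and VII collagens, 6 of FACIT collagens, 2 of laminin gamma chains, 12 of integrin alpha and 9 of integrin beta subunits. The integrin alpha subunits that bind laminin (5 probes) had a median of -0.18, from -0.35 to -0.14. Taken singly, and without a replicate block, 0 of 72 members were called with hairpin b at 0 Gy (0.334% of all probes), at 5 Gy (0.839%), with the p53 shRNA at 0 Gy (0.371%) or with it at 5 Gy (0.496%). At an unadjusted p under 0.05 the numbers were 5, 9, 4 and 13 of 72, against 1085, 2013, 1366 and 1719 of all 21568 probes. The smallest adjusted p was 0.0568, for COL8A1 ILMN_2402392 with the p53 shRNA at 0 Gy.

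Arrays of the same replicate number tended to deviate together, and with that number as a block more of these probes were called, all lower. Averaged, 9 of 72 were called with hairpin b (8.59% of all probes), the 5 above and ITGA2 (-0.30, adjusted p = 0.00579), ITGA3 ILMN_1685397 (-0.35, adjusted p = 0.0091), ITGB8 (-0.33, adjusted p = 0.0122) and LAMB2 (-0.29, adjusted p = 0.0319). ITGA2 is the alpha subunit of a collagen receptor, and ITGB8 pairs with ITGAV. At 5 Gy 4 of 72 were called (1.75% of all probes), LAMA5 (-0.89, adjusted p = 0.00909), LAMB2 (-0.71, adjusted p = 0.0281), LAMB3 (-0.46, adjusted p = 0.0451) and COL5A1 (-0.67, adjusted p = 0.0489). With the p53 shRNA at 5 Gy 2 were called (1.15% of all probes), LAMB3 (-0.53, adjusted p = 0.0224) and COL8A1 ILMN_2402392 (-0.49, adjusted p = 0.0401), and with it at 0 Gy 1 was (0.793% of all probes), COL8A1 ILMN_2402392 (-0.52, adjusted p = 0.0329). At 0 Gy in the control background the count stayed at 0.

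With the p53 shRNA, the calls for these families depended on whether replicate number entered the fit. Without it 0 of 72 were called, while 2.47% of all probes were. At an unadjusted p under 0.05 there were 8 of 72 members and 2850 of all 21568 probes. With replicate number as a block 3 of 72 were called, all lower, and 5.51% of all probes. These were ITGB2 ILMN_1654396 (-0.28, adjusted p = 0.00506), LAMA1 ILMN_1696434 (-0.43, adjusted p = 0.00636) and ITGAX ILMN_2254635 (-0.36, adjusted p = 0.037). The other ITGB2 probe fitted, ILMN_2175912, and the LAMA1 probes ILMN_1770038 and ILMN_1664574 were not called. Without the block the smallest p was that of ITGAX, the alpha subunit of a leukocyte integrin, at -0.36 (SE 0.11, adjusted p = 0.0882), detected on 5 of 12 arrays with the p53 shRNA and 9 of 12 without. COL8A1 ILMN_2402392 followed at 0.16 (SE 0.06, adjusted p = 0.198), with means of 8.10 on arrays with the p53 shRNA and 7.93 on arrays without. The single comparisons of the p53 shRNA called 0 members at 0 Gy (0.213% of all probes), at 5 Gy (0.482%), with hairpin b at 0 Gy (0.111%) and with hairpin b at 5 Gy (0.315%). At an unadjusted p under 0.05 they held 1, 3, 3 and 3 of 72 members, against 789, 1478, 861 and 1635 of all 21568 probes.

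Radiation moved none of these probes past the threshold at 4 h. Averaged over the 4 virus groups, 0 of 72 were called (1.23% of all probes). An unadjusted p under 0.05 was reached by 0 of 72 members and by 1646 of all 21568 probes. The median change was 0.02 in the members and 0.00 in all probes, and the members ran from -0.20 to 0.18. The smallest p-values belonged to COL24A1 ILMN_1810996, a fibrillar collagen chain, at 0.18 (SE 0.11, adjusted p = 0.813), and ITGA7 ILMN_1791409, a laminin-binding alpha subunit, at 0.15 (SE 0.09, adjusted p = 0.813). COL24A1 was detected on 7 of 12 irradiated and 6 of 12 unirradiated arrays, so its level was near background. Irradiation called 0 members with the control virus (0.389% of all probes), with hairpin b (0.515%), in cells of the p53 shRNA (0.167%) and in cells of both (0.13%). An unadjusted p under 0.05 was held by 1, 3, 2 and 3 of 72 members, against 700, 2185, 806 and 602 of all 21568 probes.

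The tests of whether one factor changed the response to another called 0 of 72 members each. Hairpin b by p53 shRNA called 0% of all probes, radiation by hairpin b 0% and radiation by p53 shRNA 0.0139%. In the first, LAMA2 ILMN_2339266, the alpha chain of muscle laminin, gave 0.41 (SE 0.17) and ITGB1 ILMN_1784454, the beta subunit shared by most matrix-binding integrins, gave 0.42 (SE 0.21), both with an adjusted p of 1.00. The probes of both genes disagreed: LAMA2 ILMN_1788019 gave -0.33, and the ITGB1 probes ILMN_1714820 and ILMN_1723467, detected on all 24 arrays, gave -0.15 and -0.16, whereas ILMN_1784454 was detected on 6 of them. In the second, LAMB2 ILMN_1752968, a laminin beta chain, gave -0.74 (SE 0.21, adjusted p = 0.967), and 7 of 72 members had an unadjusted p under 0.05, all probes together having 1062 of 21568. LAMB2 averaged 6.16 ± 0.11 with hairpin b and 6.87 ± 0.25 with the control virus at 5 Gy, and 6.35 ± 0.39 with hairpin b and 6.51 ± 0.15 with the control virus at 0 Gy (SD, n = 3 each). In the third, COL6A5 ILMN_1906482 gave -0.32 (SE 0.16) and COL4A2 ILMN_1724994 gave 0.47 (SE 0.24), both with an adjusted p of 1.00. There 0 of 72 members had an unadjusted p under 0.05, against 708 of 21568 for all probes.

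The second hairpin was accompanied by changes in both directions across these families. Of 56 probes fitted in that experiment 22 were called, 11 higher and 11 lower, in 18 of 42 genes. The fibrillar collagens COL1A1, COL5A1, COL5A2 and COL11A1 and the integrin subunits ITGB1, ITGA3 and ITGA4 were among the lower ones, and LAMA1, LAMA5, LAMA2, LAMB1, COL6A3, COL4A2 and ITGA5 among the higher ones. Over all 17975 probes 20.2% were called in this comparison, against 22 of 56 members; no test of the share was made. No called probe had arrays that overlapped between the groups, which with 3 arrays a group adds little to the calls. LAMB2 and COL9A2, not called, did not overlap either, and the share over all probes was not counted. The median change was 0.05 in the members and 0.00 in all probes. All 6 arrays lay on 1 chip, with the second hairpin on its last 3 positions and the control on its first 3, by the array numbers in the labels, so position and group cannot be told apart.

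Of 5 fibrillar collagen probes fitted, for 5 of the 8 fibrillar genes with a detected probe, 4 were lower and none higher. COL1A1 (ILMN_1701308), the main chain of type I collagen, stood at 9.34, 9.07 and 9.07 log2 intensity with the second hairpin and at 10.09, 10.29 and 10.32 in the control, a change of -1.07 (SE 0.10, 2.11-fold lower, adjusted p = 1.58e-04). COL5A2 (ILMN_1729117), a chain of type V collagen, gave 7.62, 7.82 and 7.55 with the second hairpin and 8.43, 8.15 and 8.27 in the control (-0.62, SE 0.10, adjusted p = 0.00289). COL11A1 (ILMN_1789507), a chain of cartilage type XI collagen, gave 6.15, 6.25 and 6.15 with the second hairpin and 6.82, 6.67 and 6.7 in the control (-0.55, SE 0.07, adjusted p = 0.00115). COL5A1 (ILMN_1706505), the partner of COL5A2, gave 8.69, 8.61 and 8.74 with the second hairpin and 9.28, 8.98 and 9.03 in the control (-0.41, SE 0.09, adjusted p = 0.0132). Every second-hairpin array lay below every control array in these 4, and the probe of COL27A1 gave 0.07 (adjusted p = 0.84).

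The other collagens were divided. COL16A1 (ILMN_1684554), a FACIT collagen, gave 6.39, 6.47 and 6.43 with the second hairpin and 7.06, 6.88 and 6.98 in the control (-0.55, SE 0.07, adjusted p = 0.00117). COL8A1 was lower on the same 2 probes as with hairpin b, ILMN_1685433 (9.13, 9.15 and 9.13 with the second hairpin, 9.44, 9.52 and 9.5 in the control, -0.35, adjusted p = 0.00591) and ILMN_2402392 (-0.38, adjusted p = 0.00929), and ILMN_2246563 gave 0.00 (SE 0.07). COL6A3, the long chain of microfibrillar type VI collagen, was higher on both its probes, at 10.08, 9.87 and 10.12 with the second hairpin and 9.62, 9.40 and 9.62 in the control for ILMN_1706643 (0.47, SE 0.09, adjusted p = 0.00784), and by 0.44 for ILMN_2307861 (adjusted p = 0.0101). COL6A1 and the 3 probes of COL6A2, its partner chains, were not called (-0.04 for COL6A1, adjusted p = 0.737). COL4A2 (ILMN_1724994), of basement membrane collagen, was higher by 0.43 (SE 0.09, adjusted p = 0.00814), and COL4A1, its neighbour on chromosome 13 and partner chain, gave -0.03 (SE 0.09, adjusted p = 0.832). COL13A1 (ILMN_2370624), a transmembrane collagen, was higher by 0.50 (SE 0.10, adjusted p = 0.00886), and COL12A1 (ILMN_1733756), a FACIT collagen, by 0.25 (SE 0.07, adjusted p = 0.0334).

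Laminins were called only upward, in 4 of 6 alpha-chain probes and 1 of 4 beta-chain probes, with 0 of 2 for gamma chains. LAMA1, the alpha chain of the embryonic laminin, had the largest change of any member: ILMN_1696434 stood at 7.96, 7.91 and 8.0 with the second hairpin and at 6.69, 6.61 and 6.88 in the control (1.23, SE 0.08, 2.34-fold, adjusted p = 3.79e-05). ILMN_1770038 gave 6.42, 6.03 and 6.2 with the second hairpin and 5.07, 5.15 and 4.91 in the control (1.17, SE 0.11, adjusted p = 1.60e-04), while ILMN_1664574, near background, gave 0.18 (SE 0.12, adjusted p = 0.349). LAMA5 (ILMN_1773567) gave 8.81, 8.66 and 8.79 with the second hairpin and 8.42, 8.16 and 8.17 in the control (0.50, SE 0.09, adjusted p = 0.00513). LAMB1 (ILMN_1658709), the common beta chain, was higher by 0.45 (SE 0.08, adjusted p = 0.0055), and LAMA2 (ILMN_2339266) by 0.32 (SE 0.07, adjusted p = 0.0135), and the other probe of each was not called (0.14 for LAMB1 ILMN_2214790, 0.22 for LAMA2 ILMN_1788019).

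LAMA1 also varied most within groups in the first experiment. The within-group SD of ILMN_1696434 was 0.79 log2 units, above that of 99.8% of probes, and that of ILMN_1770038 was 0.57. Arrays of replicate number 1 held ILMN_1696434 at 7.81 to 8.65, those of number 2 at 6.79 to 7.87 and those of number 3 at 5.97 to 7.14. By chip, the medians were 8.22, 7.85, 7.13 and 6.68 on chips 1 to 4, which hold different replicate numbers. The 2 LAMA1 probes moved by 0.03 and -0.01 with hairpin b averaged. COL6A3 had within-group SDs of 0.51 and 0.45 on its 2 probes. By replicate number the medians of ILMN_1696434 were 8.22, 7.72 and 6.68, and the part of such differences in the change with the second hairpin was not tested.

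**Figure D2:**
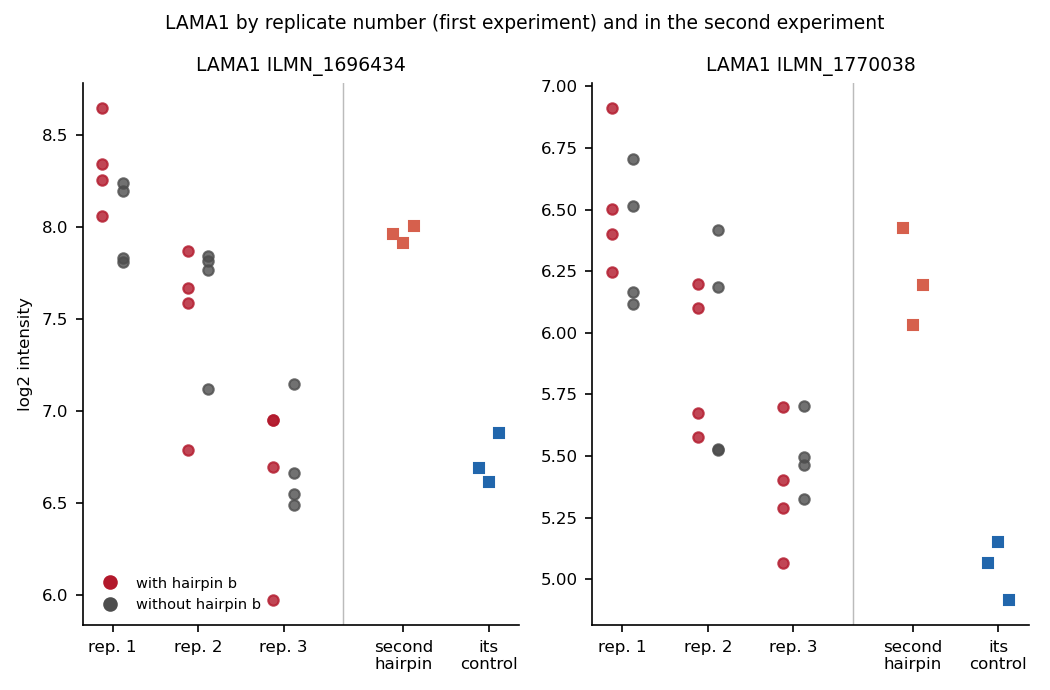
Log2 intensity (vertical axis) of the 2 LAMA1 probes called with the second hairpin, one point per array; the first experiment is split by replicate number (rep. 1 to 3, 8 arrays each, red with hairpin b, grey without) and the second experiment by group (squares). The experiments were normalized separately, so levels are compared only within each; in the first the 8 arrays of replicate 3 lie below all 8 of replicate 1.

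Among the integrins, ITGB1 was lower on both probes fitted, at 11.03, 10.94 and 11.02 with the second hairpin and 11.45, 11.37 and 11.51 in the control for ILMN_1714820 (-0.44, SE 0.07, adjusted p = 0.00275), and by -0.39 for ILMN_1723467 (SE 0.08, adjusted p = 0.0103). ITGA3 (ILMN_1685397), an alpha subunit that pairs with ITGB1 to bind laminin, gave 9.93, 9.76 and 9.96 with the second hairpin and 10.36, 10.22 and 10.25 in the control (-0.40, SE 0.08, adjusted p = 0.00866). ITGA4 (ILMN_1747052), a partner of ITGB1 in binding fibronectin and VCAM1, was lower by -0.37 (SE 0.11, adjusted p = 0.0389), and ITGA5 (ILMN_1792679), the alpha subunit of the fibronectin receptor, was higher by 0.26 (SE 0.08, adjusted p = 0.0472). The 2 probes of ITGB2 and the 3 of ITGB5, which pairs with ITGAV, were not called. Leaving out any of 5 of the 6 arrays ended the calls of COL12A1, ITGA4 and ITGA5, with adjusted p up to 0.107, 0.115 and 0.142. The array whose removal kept the call was second hairpin replicate 2 for COL12A1 and ITGA5 and control replicate 1 for ITGA4.

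**Figure D3:**
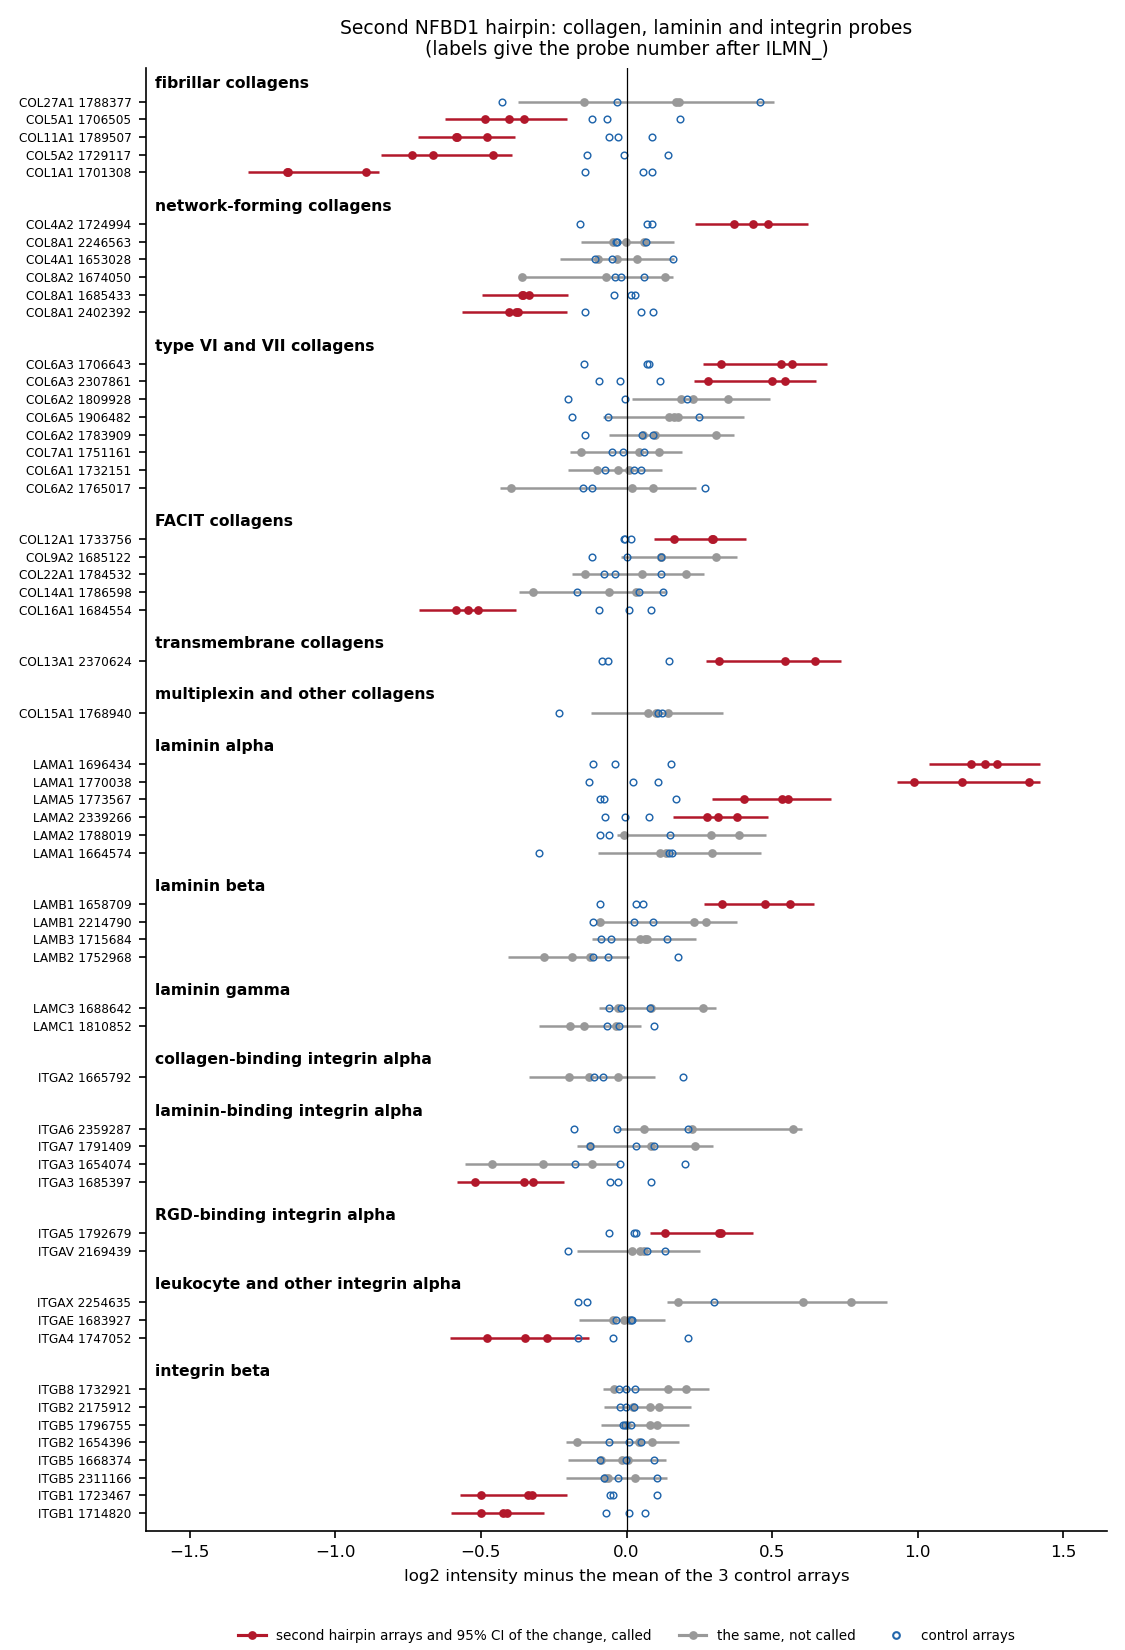
All 56 probes fitted in the second experiment, grouped by role: filled points are the 3 second-hairpin arrays and open points the 3 control arrays, each minus the control mean (horizontal axis, log2), with the 95% confidence interval of the change; red marks the 22 called probes. Fibrillar collagens lie mostly to the left and laminin alpha chains to the right, LAMA1 farthest.

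The hairpins can be set side by side because each has its own control arrays. Of 56 probes fitted in both experiments, 19 were lower with both, 9 higher with both and 28 opposite, and across probes Pearson's r was 0.16 and Spearman's rho 0.13, as a description over probes that share arrays. COL8A1 (2 probes) and COL5A1 were called lower with each hairpin, hairpin b being averaged over both doses. At 0 Gy without the p53 shRNA, as in the second experiment, hairpin b gave -0.01 for COL5A1 (SE 0.19). There it gave -0.36 for COL8A1 ILMN_1685433 (SE 0.15) and -0.32 for ILMN_2402392 (SE 0.12), and no member was called without a block. LAMB3, lower with hairpin b, gave 0.06 with the second hairpin (SE 0.08, adjusted p = 0.642). ITGA3 ILMN_1685397, lower with the second hairpin, gave -0.35 with hairpin b (SE 0.11, adjusted p = 0.0775), and was called there with the replicate block (adjusted p = 0.0091). The other ITGA3 probe, ILMN_1654074, gave -0.14 with hairpin b and -0.29 with the second hairpin and was called with neither. LAMA5 was called in opposite directions, at 0.50 with the second hairpin and -0.44 with hairpin b.

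The difference between the hairpin effects was tested in a fit of all 30 arrays together, a comparison added after the data were seen. It called 4 of 74 members (4.17% of all probes) for hairpin b averaged minus the second hairpin. These were COL1A1 (0.91, SE 0.17, adjusted p = 0.00112), COL11A1 ILMN_1789507 (0.79, SE 0.16, adjusted p = 0.00299), LAMA5 (-0.94, SE 0.23, adjusted p = 0.0173) and COL5A2 (0.64, SE 0.18, adjusted p = 0.0349). With hairpin b taken at 0 Gy only, as the second hairpin was, 2 of 74 were called (1.59% of all probes), COL1A1 at 1.03 (SE 0.21) and COL11A1 at 0.99 (SE 0.20), both with an adjusted p of 0.00702. In the averaged test LAMA5 lost its call without control replicate 2 or 3 or second hairpin replicate 1 or 3 (adjusted p up to 0.0643), and COL5A2 without control replicate 1 or 3 or second hairpin replicate 1 or 3 (up to 0.135).

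**Figure D4:**
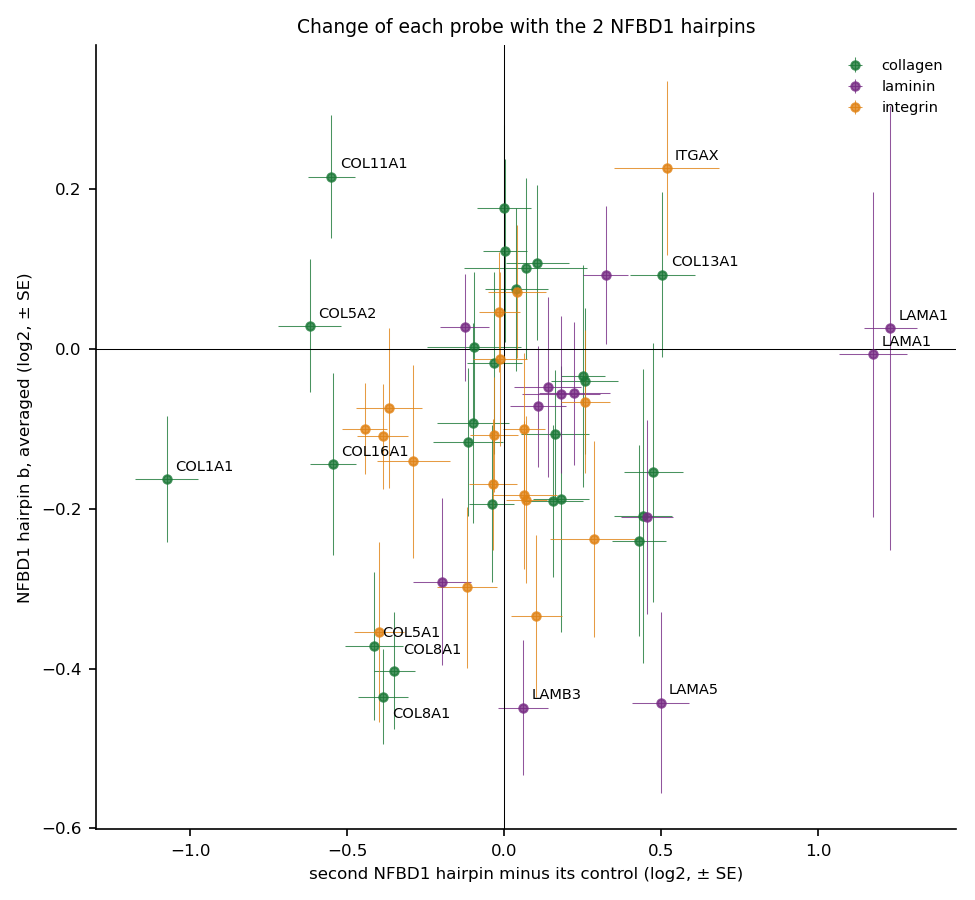
Log2 change of the 56 probes fitted in both experiments with the second hairpin (horizontal axis, against its own control) and with hairpin b averaged over the first experiment (vertical axis), with SE bars; green is collagen, purple laminin, orange integrin. COL8A1 and COL5A1 lie low on both axes, LAMA5 at 0.50 and -0.44, and COL1A1 and LAMA1 far from 0 on the horizontal axis only.

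Genes around these families were counted from lists chosen with earlier results of these data known, each gene by its brightest kept probe. With hairpin b averaged, 0 of 23 collagen-processing genes and 0 of 22 other matrix proteins were called, with 4.59% of all probes called. CD9, a tetraspanin that associates with integrins, was lower by -0.96 (adjusted p = 9.69e-06) and CD44, the hyaluronan receptor, by -0.35 (adjusted p = 0.0315), 2 of 13 other matrix receptors. ADAM17, a sheddase, was lower by -0.84 (adjusted p = 4.28e-07, 1 of 26 matrix proteases and inhibitors), TNS3, a tensin of focal adhesions, by -0.28 (adjusted p = 0.0192, 1 of 31 integrin adaptors and adhesion kinases), and SMAD3, a TGF-beta signal transducer, by -0.46 (adjusted p = 3.12e-04, 1 of 23 TGF-beta pathway genes). The list medians ran from -0.13 to 0.00, against 0.01 for all probes.

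For the p53 shRNA, where 2.47% of all probes were called, FHL2 (-0.51, adjusted p = 7.92e-04), a LIM protein that binds integrin tails, and GIT1 (-0.45, adjusted p = 0.0322), a focal adhesion scaffold, were lower. ADAM10 (-0.65, adjusted p = 4.96e-06) was lower and ADAM19 (0.25, adjusted p = 0.0451) higher, and the other 4 lists had 0 called. With radiation, for which 1.23% of all probes were called, FHL2 was higher by 0.40 (adjusted p = 0.0122), and TGIF1, a repressor of TGF-beta signalling, and SMAD3 were lower by -0.48 (adjusted p = 3.06e-04) and -0.32 (adjusted p = 0.0264).

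With the second hairpin 20.2% of all probes were called, and the counts of the lists are to be read against that share. Of 22 collagen-processing genes 5 were lower and 1 was higher, the smallest p-values being those of LOXL4 (-0.92, adjusted p = 9.78e-05) and LOXL1 (-1.17, adjusted p = 5.77e-04), which crosslink collagen, and SERPINH1 (-0.80, adjusted p = 7.58e-04), the collagen chaperone. Of 20 other matrix proteins 6 were lower, among them EFEMP1 (-0.96, adjusted p = 6.15e-05) and FBLN1 (-0.91, adjusted p = 1.46e-04), both fibulins, and 3 were higher, among them ECM1 (0.91, adjusted p = 6.83e-04). Of 30 adaptors and kinases 4 were lower, led by TNS3 (-0.86, adjusted p = 1.14e-04) and LIMS1 (-0.69, adjusted p = 4.20e-04), a partner of integrin-linked kinase, and 3 higher, led by LPXN (0.81, adjusted p = 1.15e-04). Of 11 other receptors 3 were higher and 2 lower, with SDC4 at 0.70 (adjusted p = 2.74e-04), DDR2, a collagen-binding kinase, at -0.46 (adjusted p = 0.00214) and CD9 at -0.45 (adjusted p = 0.00486). Of 25 proteases and inhibitors 5 were higher and 4 lower, with MMP3 at 0.90 (adjusted p = 8.89e-05), ADAM19 at 0.77 (adjusted p = 1.08e-04) and SERPINE2 at -0.66 (adjusted p = 4.45e-04). Of 22 TGF-beta pathway genes 3 were lower and 2 higher, with SMAD6 at -1.04 (adjusted p = 1.14e-04), TGFB3 at -0.58 (adjusted p = 0.00265) and CCN2 at 0.49 (adjusted p = 0.0041). The list medians ran from -0.06 to 0.09, against 0.00 for all probes.

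Some markers of cell state moved beside these changes. Their counts are to be read against 20.2% of all probes called with the second hairpin and 4.59% with hairpin b averaged. CDH2, N-cadherin, was lower with each hairpin, at -0.97 with the second hairpin (adjusted p = 5.91e-05) and -1.0 with hairpin b (adjusted p = 1.62e-11). Of 8 mesenchymal and osteoblast markers fitted in the second experiment 4 were lower with the second hairpin, also RUNX2 (-0.99), SNAI2 (-0.83) and S100A4 (-0.55), and ALPL was higher (0.90). Their summed intensity was 11573 to 12439 with the second hairpin and 14740 to 14829 in the control. CDH1 (0.53), 1 of 2 epithelial markers fitted, and CD3D (1.24) and CSF1R (0.45), 2 of 4 blood cell markers fitted, were higher with the second hairpin. Of 4 endothelial markers fitted 0 were called. CDH1 was dim, with medians of 5.19 log2 intensity with the second hairpin and 4.62 in the control, as was CSF1R (5.62 and 5.09). The summed epithelial intensity was 226.2 to 234.0 with the second hairpin and 217.6 to 220.3 in the control, and that of blood cell markers 276.9 to 302.9 with the second hairpin and 226.3 to 247.1 in the control. The sums hold every listed marker with a probe, also those detected on 0 arrays, so part of each is background. They include CDH1, CD3D and CSF1R, so they are not separate from the changes of these markers. With hairpin b the summed mesenchymal intensity was 17575 to 21618 at 5 Gy, against 21822 to 23444 in the control at 5 Gy, and 19941 to 22160 at 0 Gy, against 21048 to 22534 in the control at 0 Gy. With the p53 shRNA added it was 19283 to 22294 with hairpin b at 5 Gy, against 20675 to 24286 with the p53 shRNA alone, and 18587 to 22540 with hairpin b at 0 Gy, against 20076 to 23971 with the p53 shRNA alone. Only the first of these 4 pairs did not overlap. S100A4 was also lower with hairpin b (-0.34, adjusted p = 0.00185), so that 2 of 9 mesenchymal and osteoblast markers were. The part of these shifts in the changes of collagens, laminins and integrins was not tested.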

How the data were processed

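RNA of 30 U2OS samples was hybridised to 1-colour Illumina bead arrays. The deposited table holds the intensity of each probe on each array, not normalized, and per the file headers a detection p-value against negative controls. The authors also deposited log2 values with the same distribution on all arrays. Their median was 6.95 on every array, the rank order was that of the intensities, log base 2 was inferred from their range, and how low signals were transformed stays unknown. They served as an alternative. Another 60 columns (bead errors and bead numbers) were not used. Scanner software is not given in the sources used here.

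Within each experiment, intensities were background-corrected with normexp, then brought to a common distribution by quantiles and, after adding an offset of 16, to log2 (neqc, whose negative-control level was worked out from each array's detection values; limma 3.58.1, R 4.3.3). Probes with detection p under 0.01 on 3 or more arrays of the experiment were kept. Group means were fitted with lmFit and eBayes, with 16 residual degrees of freedom in the first experiment and 4 in the second, and p-values were adjusted by Benjamini-Hochberg over all kept probes in each of 19 comparisons. SD and SE are on the log2 scale. The hairpin difference was fitted on all 30 arrays normalized together, chosen after seeing the data. The fits were tested on simulated data whose noise was independent between arrays. That test did not cover deviations shared by arrays of the same replicate number.

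Probes were named from the platform annotation, in which 27577 probes have 1 symbol, 13 several and 21212 none here. Of these, 27540 matched RefSeq. Probes of 1 gene were kept apart in the comparisons. The members and the gene lists were chosen with earlier results of these data known. Named were MDC1, every called member (up to 20 a comparison, by p), the 2 smallest p-values where none was called, probes just inside and outside the detection rule, and up to 3 called genes of each list by p. Other probes of a named gene, its partner chains and the markers were named after their values were seen.

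Alternatives were no background correction, the authors' values, no detection filter, a stricter one, 1 probe per gene, chip or replicate number as a block, only the 6 arrays compared, and leaving out each array. Same-numbered arrays of the first experiment tended to deviate together: 71 of 84 correlations of their deviations from the group means were above 0.1 (lowest -0.14), against 0 of 3 in the second experiment. Numbers were taken to pair the samples only where every correlation between the groups compared was above 0.1, which held for 8 of 12 single comparisons and not over the averaged ones. Counts that the replicate block moved are given beside the counts without it.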

Additional observations from a re-analysis of the deposited data

Results flagged for a closer look

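Flagged because the effects of the hairpins differed by a test of the difference itself (limma on all 30 arrays, added after the data were seen), hairpin b averaged minus the second hairpin was 0.915 log2 units for COL1A1, 0.785 for COL11A1 ILMN_1789507, 0.635 for COL5A2 and -0.939 for LAMA5. With hairpin b at 0 Gy only, the difference was 1.03 for COL1A1 and 0.987 for COL11A1. With hairpin b the changes were -0.16 for COL1A1, 0.22 for COL11A1, 0.03 for COL5A2 and -0.44 for LAMA5. With the second hairpin they were -1.07 for COL1A1, -0.55 for COL11A1, -0.62 for COL5A2 and 0.50 for LAMA5. The hairpins were measured in separate experiments, so experiment and hairpin cannot be told apart in this difference beyond each having its own control. With 3 arrays a group, no single array was tested as an outlier.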

How the results depend on the processing

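Under the alternatives run, no called value changed sign. Hairpin b averaged (5 members called) gave 9 with the replicate block, and p53 averaged (0) gave 3. Counts of 0 in single comparisons of hairpin b moved as follows. At 5 Gy the count was 1 without background correction, 2 with the chip block and 4 with the replicate block. At 0 Gy it was 1 with the chip block. With the p53 shRNA at 0 Gy it was 1 without background correction, with the authors' values, without the detection filter, with the stricter filter, with the chip block and with the replicate block. With the p53 shRNA at 5 Gy it was 1 without background correction, with the authors' values, without the filter and with the chip block, and 2 with the replicate block. The difference between hairpins (4 averaged, 2 at 0 Gy) gave 9 and 6 with the chip block and 8 and 4 with the replicate block. The causes were not tested. Leaving out each array gave 4 to 7 for hairpin b averaged, 19 to 22 for the second hairpin, 2 to 5 for the averaged difference, 0 to 1 for p53 averaged and 0 to 1 for hairpin b at 5 Gy. The averaged difference had 2 calls without control replicate 3 of the second experiment or second hairpin replicate 1 or 3. The p53 call appeared without replicate 1 of both shRNAs at 5 Gy or without p53 shRNA replicate 2 at either dose, and the one at 5 Gy without control replicate 2. As a hint from the data, deviations from the group means were correlated with those of arrays of other groups. The mean correlation was highest with the own replicate number for 23 of 24 arrays of the first experiment. By chip it was highest with the own chip for 18 of 24, and chip and number are partly confounded. Among single probes, LAMA5 with hairpin b had an adjusted p of 0.0572 without the filter. ITGA4 and LAMA2 lost their calls with the authors' values (0.0761 and 0.0957), ITGA4 and ITGA5 without the filter (0.107 and 0.0788), and COL12A1 and ITGA5 with the replicate block (0.0652 and 0.0816). The number used as that block in the second experiment is uncertain, since its control arrays are numbered 1 to 3 in their titles and 4 to 6 in the table's column names. COL5A2 in the averaged difference gave 0.0544 without the filter, and ITGAX with the p53 shRNA passed with the replicate block (0.037). Low signals, such as those of COL24A1 and ITGAX, limit what can be read for dim probes.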
